A study of Mus musculus with 45 samples.

Results

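The short protocol (SP) with tetrodotoxin (TTX) and NMDA was compared with uninterrupted action potential (AP) firing of the same total duration in mouse hippocampal primary neurons. In the SP TTX/NMDA group, bicuculline (Bic, 50 µM) acted alone for 0.5 h, and TTX (1 µM) and NMDA (30 µM) were then added for 0.5 h with Bic still present. In the 1 h Bic group, the same Bic concentration acted for 1 h without a later drug. Each group held 5 libraries, 1 from each of the culture preparations numbered 1, 3, 6, 7 and 8, so that the comparison used 10 of the 45 libraries of the series and was made within preparations over all genes. It asks what the combined block of AP firing and bath application of NMDA, begun midway through a 1 h period of firing, does to the transcriptome.

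Bic blocks GABA type A receptors, which releases the network from inhibition and starts bursts of AP firing. Calcium that enters through synaptic NMDA receptors and voltage-gated channels then activates kinase cascades and the transcription factors CREB and SRF, and these switch on the immediate early genes within minutes. Immediate early genes encode transcription factors such as Fos, Egr1 and Npas4 and synaptic effectors such as Arc. Their mRNAs are short-lived, so that their level follows the recent rate of transcription. TTX blocks voltage-gated sodium channels and with them AP firing, whereas bath-applied NMDA also reaches receptors outside synapses and is the classic means of evoking excitotoxic signaling.

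All 9 groups of the series were cultures from newborn (P0) C57BL/6N mice, first grown in B27 with 1% rat serum and given AraC on day in vitro 3 to stop dividing cells. They were moved to another neuronal medium before treatment, which the labels place on day 10 or 11 and the sequencing methods on day 11. The number of animals pooled per preparation is not given in the sources used here, and bath application exposes every cell of the dish to NMDA. A TTX/NMDA library held between 24411692 and 37251209 reads assigned to genes (median of the 5 libraries 24831677), a 1 h Bic library between 17229802 and 44206367 (median 26689723). Within a group, the lowest correlation between the log-scale counts of 2 libraries was 0.988 with TTX/NMDA and 0.991 with 1 h Bic. The levels below are CPM, reads scaled to a common library size after normalization, rounded to 3 significant digits. They are not divided by gene length and are therefore compared only within a gene. The cultures expressed the neuron markers Map2, Tubb3, Snap25 and Syt1 at means between 1032 and 1627 CPM in both groups, alongside markers of astrocytes and other non-neuronal cells.

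A few regulatory sequences of genes that fell are shown here. The microRNAs miR-132 and miR-212 lie next to each other on chr11 (GRCm38.p6, plus strand), and the mature sequences of RefSeq are printed with the seed (bases 2 to 8) in capitals. The 3p strands share the seed AACAGUC, and the 5p strands do not share theirs.
mmu-miR-212-3p, chr11:75173443-75173464: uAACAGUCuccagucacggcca
mmu-miR-132-3p, chr11:75173723-75173744: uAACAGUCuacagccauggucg
mmu-miR-212-5p, chr11:75173403-75173425: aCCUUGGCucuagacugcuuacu
mmu-miR-132-5p, chr11:75173686-75173707: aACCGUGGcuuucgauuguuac

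Promoter windows from RefSeq (GRCm38.p6, 250 bases before to 50 bases after a transcript start) were matched by symbol for 11422 of the 15435 genes tested. They were searched on both strands for the full cAMP response element (CRE, TGACGTCA), which binds CREB, for the AP-1 site TGANTCA and for the CArG box, which binds SRF. Neither of the 2 spellings contains the other. A CRE was found for 10 of 62 matched genes (16.1%) that were induced by 0.5 h Bic and for 7 of 61 matched genes (11.5%) that fell by over 1 log2 unit with TTX/NMDA. It was found for 3.56% of all tested genes with a window and for 2.03% of the 27025 genes of the whole promoter table. The AP-1 site was present for 4.92% of the genes that fell by over 1 log2 unit and for 6.07% of all tested genes, and the CArG box for 3.28% and 1.6%. These are matches of letters only. Of the windows below, those of Dusp1, Btg2 and Plk2 hold a CRE, and those of Dusp5 and Egr2 hold CArG boxes (2 neighbouring ones for Dusp5). They were chosen because they hold a match, which most of the strongly lowered genes lacked. Of the 15 genes with the largest decreases, 12 had a window here, and 11 of these 12 held none of the 3 motifs, Egr2 being the exception. The matches are in capitals.
Dusp1, chr17:26508423-26508722, minus strand: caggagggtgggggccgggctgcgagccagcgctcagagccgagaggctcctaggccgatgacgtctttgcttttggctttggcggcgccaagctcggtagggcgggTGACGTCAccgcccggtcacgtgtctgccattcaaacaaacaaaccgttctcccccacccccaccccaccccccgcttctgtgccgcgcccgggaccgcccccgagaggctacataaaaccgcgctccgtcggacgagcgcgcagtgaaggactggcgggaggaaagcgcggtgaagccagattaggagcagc
Btg2, chr1:134079106-134079405, minus strand: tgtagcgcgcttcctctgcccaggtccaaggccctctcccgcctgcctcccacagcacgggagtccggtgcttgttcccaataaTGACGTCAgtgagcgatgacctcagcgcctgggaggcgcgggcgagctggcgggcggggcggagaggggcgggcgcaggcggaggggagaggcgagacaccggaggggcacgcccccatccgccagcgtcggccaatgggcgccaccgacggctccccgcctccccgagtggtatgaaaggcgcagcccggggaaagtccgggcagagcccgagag
Plk2, chr13:110394794-110395093, plus strand: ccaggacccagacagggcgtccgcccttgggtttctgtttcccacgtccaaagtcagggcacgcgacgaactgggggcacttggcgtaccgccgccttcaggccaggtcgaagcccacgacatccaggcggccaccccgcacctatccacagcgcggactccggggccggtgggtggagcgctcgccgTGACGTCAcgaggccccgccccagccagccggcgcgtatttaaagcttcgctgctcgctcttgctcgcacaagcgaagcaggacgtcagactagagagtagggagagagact
Dusp5, chr19:53528895-53529194, plus strand: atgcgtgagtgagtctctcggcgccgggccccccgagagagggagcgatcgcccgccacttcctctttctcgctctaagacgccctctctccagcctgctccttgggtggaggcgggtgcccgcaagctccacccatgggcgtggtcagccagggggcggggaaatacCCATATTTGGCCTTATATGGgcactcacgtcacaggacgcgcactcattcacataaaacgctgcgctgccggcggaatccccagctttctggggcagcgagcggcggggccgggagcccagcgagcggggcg
Egr2, chr10:67537619-67537918, plus strand: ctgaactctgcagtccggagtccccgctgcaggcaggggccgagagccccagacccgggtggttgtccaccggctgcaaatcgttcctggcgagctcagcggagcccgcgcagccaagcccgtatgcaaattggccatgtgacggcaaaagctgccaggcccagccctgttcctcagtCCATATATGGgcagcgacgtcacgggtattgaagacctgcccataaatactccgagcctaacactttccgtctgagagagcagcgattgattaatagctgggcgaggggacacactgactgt

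TTX/NMDA changed the levels of 4217 of the 15435 genes tested (27.3%; edgeR's quasi-likelihood test with the preparation as a block, Benjamini-Hochberg adjusted p under 0.05, as for all calls below). Of these, 1804 were raised (11.7%) and 2413 were lowered (15.6%). The changes were mostly small, with a median log2 fold change of 0.26 among the raised and −0.25 among the lowered genes, and 0.02 over all tested genes. A change of over 1 log2 unit was called for 27 raised and 87 lowered genes. Among all called genes, 3419 (81.1%) changed in the same direction in 5 of 5 preparations. In 1121 genes (7.26%) every TTX/NMDA library lay below every 1 h Bic library, and in 360 genes (2.33%) every one lay above. The fit without the block called 320 raised (2.07%) and 1162 lowered genes (7.53%, together 9.6%), so the share of raised genes among the calls was 42.8% with and 21.6% without it. The raised count also fell to 1095, 874 or 853 without preparation 1, 6 or 7, and to 1062 in DESeq2 with the block.

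**Figure D1:**
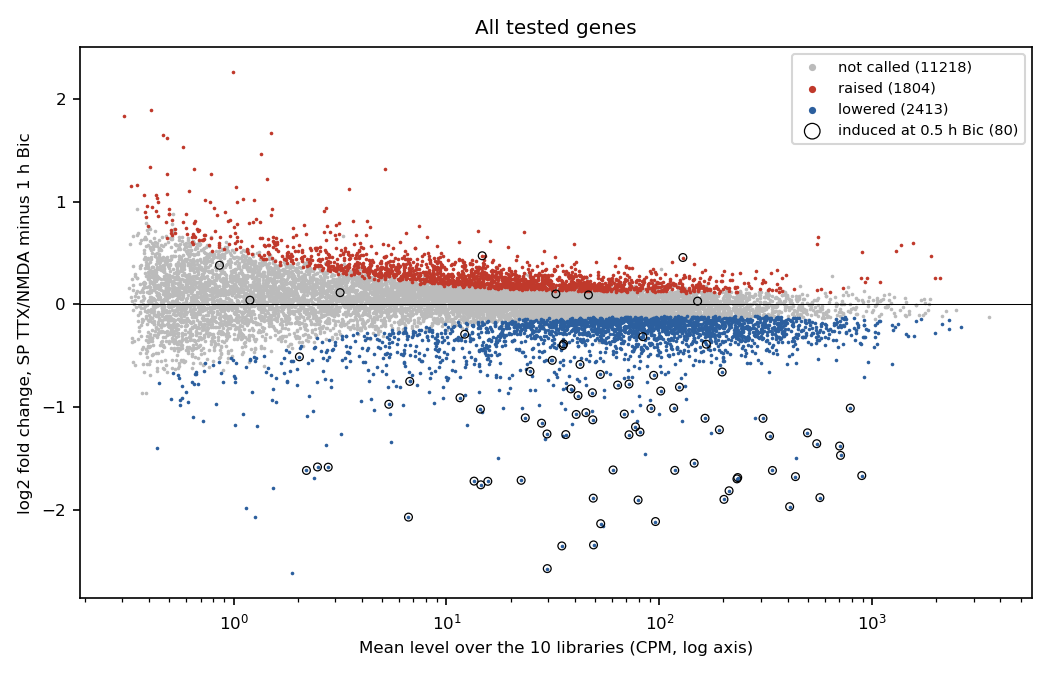
Each point is a tested gene, placed by its mean level over the 10 libraries (CPM, log axis) and its log2 fold change, SP TTX/NMDA minus 1 h Bic, with raised genes in red, lowered genes in blue and genes not called in grey. The black circles mark the 80 genes induced by 0.5 h Bic, 72 of which were lowered, and the largest decrease is that of Fosl1 (−2.62).

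The 15 largest decreases were those of Fosl1, Ptgs2, Klf4, Atf3, Tiparp, Egr2, Spty2d1, C2cd4b, Ghsr, Esm1, Fosb, Fbxo33, Nr4a2, Trib1 and Arc, with log2 fold changes from −2.62 to −1.88. In each of them the 2 groups of 5 libraries did not overlap, and the call held in the fit without the block. They were picked for size among called genes at a mean of at least 1 CPM with 1 direction in 5 of 5 preparations. That the groups did not overlap is therefore a description. On GRCm38, the genes with the 4 largest values lie at chr19:5447547-5455946 (Fosl1, plus strand), chr1:150100031-150108227 (Ptgs2, plus strand), chr4:55527143-55532466 (Klf4, minus strand) and chr1:191170296-191218039 (Atf3, minus strand). None of the 15 overlaps an annotated gene on its own strand. Fosl1, an AP-1 subunit, was at 2.68, 2.08, 3.01, 3.71 and 4.65 CPM in the 1 h Bic libraries of preparations 1, 3, 6, 7 and 8 and at 0.463, 0.532, 0.506, 0.51 and 0.613 CPM with TTX/NMDA (log2 fold change −2.62, SE 0.17, adjusted p = 2.07e-08). Ptgs2, the inducible cyclooxygenase, was at 59.6, 47.9, 57.2, 57.5 and 32.9 CPM with 1 h Bic and at 9.64, 9.53, 7.05, 10.5 and 5.64 CPM with TTX/NMDA. Its change of −2.58 (SE 0.08, adjusted p = 1.23e-11) had the smallest adjusted p-value of all genes. Tiparp, an ADP-ribosyltransferase, fell from a mean of 88.7 to 19.7 CPM. Spty2d1, a histone chaperone, fell from 156 to 35.8 CPM, and Fbxo33, which encodes an F-box protein, from 126 to 33.2 CPM. The untreated controls were at 15.3, 29.8 and 27.2 CPM in these 3 genes. Ghsr, the ghrelin receptor, and Esm1, a secreted proteoglycan, were rare transcripts, at 2.04 and 1.84 CPM with 1 h Bic and at 0.477 and 0.446 CPM with TTX/NMDA.

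**Figure D2:**
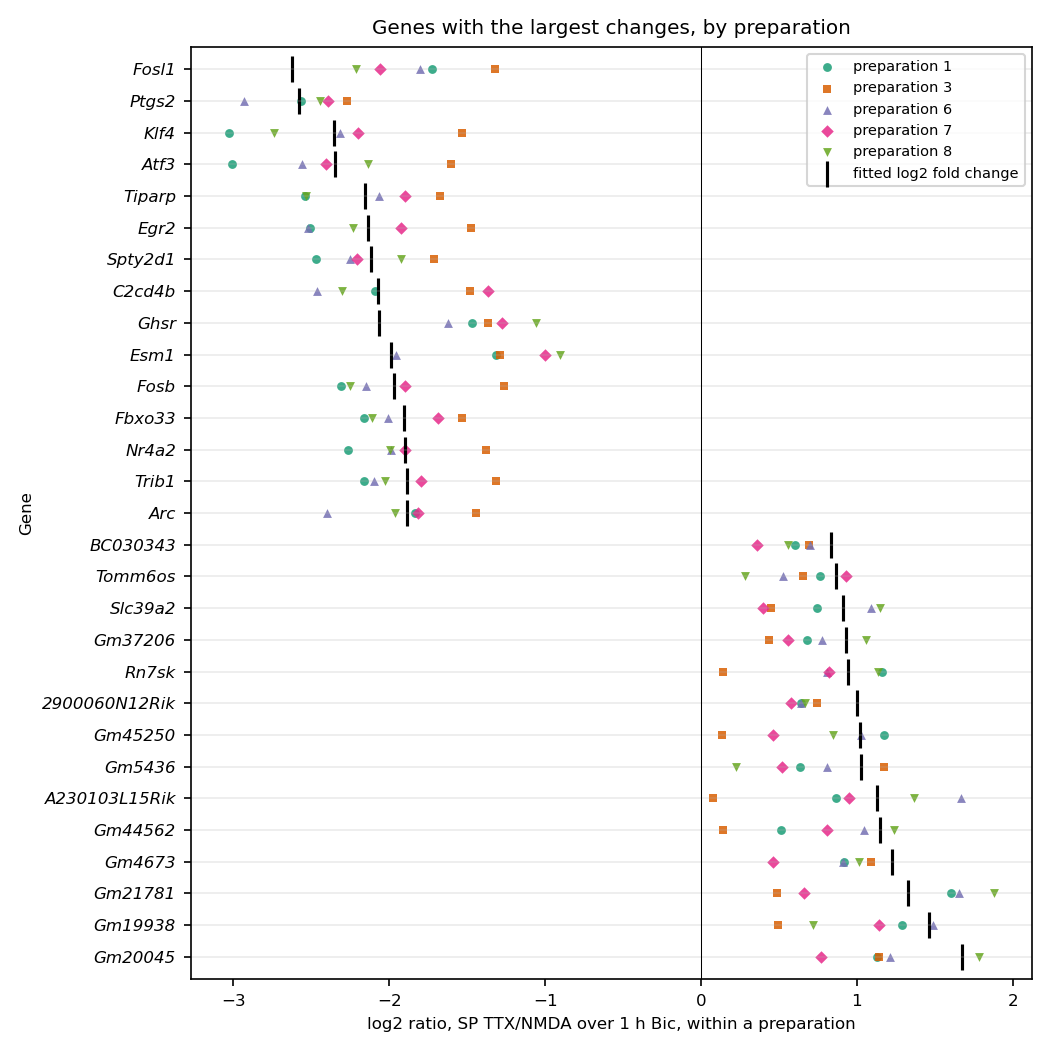
For the 15 genes with the largest decreases and 14 of the 15 with the largest increases, coloured symbols give the log2 ratio of SP TTX/NMDA over 1 h Bic in each of the 5 preparations (0.5 CPM added to both levels) and a black bar gives the fitted log2 fold change. All ratios lie on the side of the fitted change, which was a condition for choosing these genes. Ratios of rare transcripts are drawn towards 0 by the added 0.5 CPM. Preparation 3 (orange squares) gives the smallest decrease for 12 of the 15 lowered genes.

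The transcription factors of the immediate early response fell as families. Beside the counts of called list members here and below, 15.6% of all tested genes were lowered and 11.7% raised. Without the block, 7.53% were lowered and 2.07% raised. All 7 members of the AP-1 family were lowered (median log2 fold change −1.36, against 0.02 over all tested genes), and the libraries of the 2 groups overlapped for none of the 7. Fos was at 1100, 877, 1070, 1080 and 1080 CPM with 1 h Bic and at 333, 462, 314, 456 and 323 CPM with TTX/NMDA (−1.47, SE 0.10, adjusted p = 3.65e-08). Fosb was at 703, 497, 641, 665 and 759 CPM and at 141, 206, 144, 178 and 159 CPM, in the same order (−1.97, SE 0.11, adjusted p = 6.18e-09). In both genes preparation 3 had the lowest level with 1 h Bic and the highest with TTX/NMDA. Junb (−1.36), Jun (−1.28) and Fosl2 (−1.11) fell by similar amounts, and Jund, which is also expressed at rest, fell by 0.57 on the log2 scale.

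Of the 6 members of the Egr and Nab list, 5 were lowered (median −1.50). The zinc finger factor Egr2 was at 88.8, 69.4, 87, 81.7 and 105 CPM with 1 h Bic and at 15.2, 24.6, 14.7, 21.2 and 22.1 CPM with TTX/NMDA (−2.14, SE 0.11, adjusted p = 3.19e-09). Egr3 (−1.69), Egr4 (−1.62) and Egr1 (−1.38) followed. Of the Egr co-repressors, Nab2 changed by −0.21, a call lost without the block (adjusted p = 0.22), and Nab1 had a value of −0.06 that did not pass the test. The 3 orphan nuclear receptors of the Nr4a family all fell. Nr4a2 was at 294, 251, 336, 335 and 371 CPM with 1 h Bic and at 60.8, 96.5, 84.4, 89.5 and 92.5 CPM with TTX/NMDA (−1.90, SE 0.09, adjusted p = 1.33e-09). Nr4a1 (−1.68) and Nr4a3 (−1.50) changed in the same direction in 5 of 5 preparations. Nr4a3 ended below its control level on average (228 against 316 CPM), whereas Nr4a1 stayed above it (208 against 47.4 CPM).

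Among the 13 Krüppel-like factors, 8 were lowered (5 without the block) and none was raised. Klf4 was at 62.1, 54.8, 64.5, 66.4 and 42.2 CPM with 1 h Bic and at 7.18, 18.6, 12.5, 14.1 and 5.87 CPM with TTX/NMDA (−2.36, SE 0.14, adjusted p = 1.56e-08), while Klf9 (−0.71), Klf5 (−0.64) and Klf13 (−0.39) changed less. Klf10, Klf15, Klf3 and Klf11 had values between 0.06 and 0.17 that did not pass the test.

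The activity-induced effectors, the genes through which firing alters synapses and growth factor signaling, were lowered in 21 of 25 cases (16 without the block), with a median of −0.66. Arc, the cytoskeletal protein that removes AMPA receptors from synapses, was at 963, 666, 803, 833 and 1200 CPM with 1 h Bic and at 270, 245, 152, 236 and 307 CPM with TTX/NMDA (−1.88, SE 0.09, adjusted p = 1.52e-09). Npas4, the neuron-specific activity-dependent transcription factor, was at 1470, 1040, 1280, 1450 and 1550 CPM and at 399, 496, 363, 476 and 390 CPM (−1.67, SE 0.10, adjusted p = 8.85e-09). Bdnf, the neurotrophin, was at 173, 135, 190, 184 and 194 CPM and at 60.7, 70, 85.1, 93.6 and 86 CPM (−1.14, SE 0.07, adjusted p = 8.39e-09). No library with TTX/NMDA reached the lowest library with 1 h Bic in these 3 genes. Homer1, the postsynaptic scaffold with a short activity-induced form, fell from 167 to 95.7 CPM (−0.79), and Inhba, which encodes the activin A subunit, from 10.4 to 6.38 CPM (−0.72). The mean of Bdnf, Homer1, Inhba and Nptx1 (a neuronal pentraxin) with TTX/NMDA was below that of the control, at 79.1 against 108, 95.7 against 109.5, 6.38 against 7.77 and 155 against 223 CPM.

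Reads over the hairpin loci of the microRNAs whose sequences are shown above were lowered. Mir132 was at 4.17, 3.35, 2.9, 3.71 and 4.44 CPM with 1 h Bic and at 1.66, 1.29, 0.896, 1.13 and 1.25 CPM with TTX/NMDA (−1.58, SE 0.13, adjusted p = 3.51e-07). Mir212 was at 4.83, 2.87, 3.48, 4.44 and 5.35 CPM and at 1.39, 1.33, 1.01, 1.64 and 1.51 CPM (−1.59, SE 0.13, adjusted p = 4.33e-07). In libraries of poly-A RNA such reads come from precursor transcripts, and the mature microRNAs were not measured. The annotated transcript 1700016P03Rik (chr11:75172560-75177633, plus strand) spans both hairpins. It was at 37.8, 36.7, 34.2, 38.4 and 39.4 CPM and at 22.3, 27.6, 20.4, 30.6 and 26.7 CPM (−0.55, SE 0.06, adjusted p = 1.77e-05). When NMDA was added to TTX, 1700016P03Rik had a value of 0.37 (adjusted p = 0.032), against −0.98 for Mir132 and −0.91 for Mir212. In the long protocol, 1 h Bic and then 1 h TTX/NMDA, the values were 0.50 for 1700016P03Rik, −1.83 for Mir132 and −1.94 for Mir212. The members of this list that did not pass the test were Mir22hg (−0.13), Sorcs3 (−0.07), Cpeb3 (−0.06) and Rheb (0.02).

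Some feedback inhibitors of the kinase cascades were lowered. Of 10 dual-specificity phosphatases, which switch off MAP kinases, 6 were lowered in both fits (median −0.45). Dusp1, with the CRE shown above, was at 235, 177, 207, 235 and 230 CPM with 1 h Bic and at 68.6, 86.4, 59.9, 94.3 and 62.7 CPM with TTX/NMDA (−1.55, SE 0.10, adjusted p = 1.58e-08). Dusp6 and Dusp5, the latter with the paired CArG boxes, changed by −1.11 each, and Dusp7 and Dusp16 had values of 0.08 and −0.01 that did not pass the test. Of 7 Sprouty and Spred genes, which restrain receptor tyrosine kinase signaling, 4 were lowered, and Spry2 (−0.68) was the member that was also called without the block. Of 18 genes of the Btg, Ier, Trib, Pim and Csrnp families, 12 were lowered (9 without the block) and none was raised. The antiproliferative gene Btg2 was at 364, 343, 334, 325 and 403 CPM and at 106, 136, 80.6, 118 and 105 CPM (−1.70, SE 0.08, adjusted p = 1.52e-09). Trib1, a pseudokinase, fell by 1.89 and Csrnp1, a nuclear factor, by 1.76 on the log2 scale.

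Of the 15 genes of the CREB, Crtc and Sik list, 9 were lowered and 1 was raised (8 and 0 without the block). The decreases were led by the targets, with Sik1 (a kinase that holds back the CREB coactivators) at −1.19 and the clock gene Per1 at −0.92. Creb1 itself changed by −0.01 (adjusted p = 0.92), and its coactivator Crebbp by 0.07 (adjusted p = 0.37). The SRF and actin list was split, with 6 of 21 lowered and 4 raised (4 and 0 without the block). Ccn1, a secreted matrix protein, was at 389, 308, 317, 347 and 289 CPM with 1 h Bic and at 95.5, 111, 62.5, 124 and 81.1 CPM with TTX/NMDA (−1.82, SE 0.10, adjusted p = 3.07e-09). Srf fell by 0.75, whereas Tagln, an actin-binding gene of smooth muscle, had a value of 0.76 (adjusted p = 0.0045, and 0.27 without the block). Tagln was at 8.88 and 10.3 CPM in preparations 3 and 7 with TTX/NMDA and at 3.39, 3.58 and 1.56 CPM in the other 3.

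Stress response genes did not move as a block. Several of the counts below are near the shares over all tested genes, 15.6% lowered and 11.7% raised. Of 17 genes of the integrated stress response, 6 were lowered and 1 was raised (4 and 0 without the block). The 4 lowered most, Atf3 (−2.35), Gadd45b (−1.61), Gadd45g (−1.22) and Ppp1r15a (−0.78), were also among the genes induced by 0.5 h Bic, whereas Atf4 (−0.12), Asns (−0.03) and Chac1 (−0.01) did not pass the test. Atf3 was at 78.1, 53.8, 83.7, 63.6 and 130 CPM with 1 h Bic and at 9.26, 17.4, 13.8, 11.6 and 29.2 CPM with TTX/NMDA (SE 0.13, adjusted p = 4.66e-09). Of 14 heat shock genes, 3 were lowered and 3 raised (3 and 1 without the block). The co-chaperone Dnajb1 fell by 0.62 on the log2 scale and the mitochondrial chaperonin Hspe1 rose by 0.28 (adjusted p = 0.0011, and 0.035 without the block). Of 16 chaperones of the endoplasmic reticulum, 2 rose and 1 fell, none of them without the block. In the Bcl2 family of 14 cell death regulators, 4 were lowered and 1 raised (1 and 0 without the block). Mcl1, which protects from apoptosis, fell by 0.32 (adjusted p = 3e-04), and Bax, which promotes it, had a value of 0.20 (adjusted p = 0.0087, and 0.13 without the block).

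A list of activity-regulated genes that did not use the libraries of this comparison was taken from 0.5 h Bic against untreated control, the moment at which TTX/NMDA was added. It held 80 induced genes (0.541% of 14783 tested). Of these, 72 were lowered by TTX/NMDA relative to 1 h Bic, each in 5 of 5 preparations, and 65 of the 72 had groups that did not overlap. Without the block 69 were lowered. The median log2 fold change was −1.12, and the median level with TTX/NMDA was 46% of that with 1 h Bic. The medians of the 80 genes within preparations 1, 3, 6, 7 and 8 were −1.28, −0.80, −1.26, −1.02 and −1.31, against medians between −0.02 and 0.01 for all tested genes. Preparation 3 thus had the smallest decrease. The 8 exceptions included 4 collagen genes. Col4a1, a basement membrane collagen, rose by 0.46 and Col11a1, a fibrillar collagen, by 0.47 on the log2 scale. Neither of the 2 was called without the block (adjusted p = 0.14 and 0.18). Col4a2 (0.03), Col5a1 (0.10), the potassium channel subunit Kcne4 (0.11), Mbd6 (0.09), Snora31 (0.04) and Gm24119 (0.38) did not pass the test. In the other direction, 50 of the 87 genes (57.5%) lowered by more than 1 belonged to the 80, and 82 of the 87 were raised by 2 h Bic against control, which called 14.4% of tested genes raised and 29.3% changed.

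**Figure D3:**
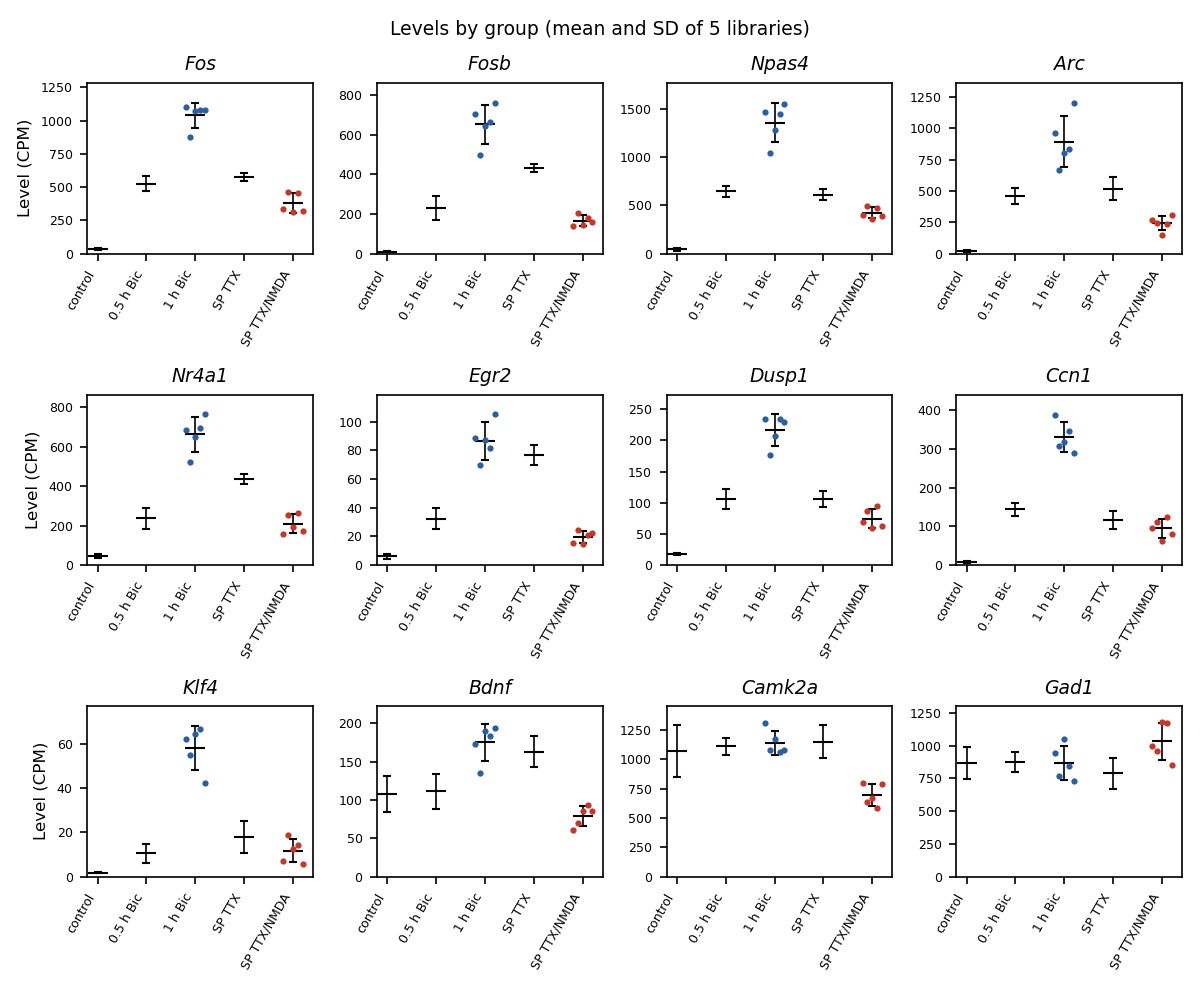
Levels (CPM) of 12 genes in the control, 0.5 h Bic, 1 h Bic, SP TTX and SP TTX/NMDA groups, with the mean and SD of 5 libraries as black bars and single libraries as points for 1 h Bic (blue) and SP TTX/NMDA (red). Levels of Fos, Fosb, Npas4, Arc, Nr4a1, Egr2, Dusp1, Ccn1, Klf4 and Bdnf rise up to 1 h Bic and are lower with TTX/NMDA, Camk2a is level except with TTX/NMDA, and the groups overlap for Gad1.

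The level at the time of the addition gives a further reference. Uninterrupted Bic raised the mean from 0.5 to 1 h in 76 of the 80 genes. With TTX/NMDA, the mean was below the 0.5 h Bic mean in 65 of the 80, below the 0.5 h library of the same preparation in all 5 preparations for 45, and above the control mean in 80. With TTX alone, the mean was below that of 0.5 h Bic in 18. These counts are a description, since the genes had been chosen for high levels at 0.5 h. Fos was at 528 CPM after 0.5 h Bic, 1041 after 1 h, 577 with TTX and 378 with TTX/NMDA, and Egr3 at 177, 357, 359 and 110 CPM.

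The step from 1 h Bic to TTX/NMDA was also taken apart with the SP TTX libraries, which received TTX without NMDA. TTX against 1 h Bic shares the 1 h Bic libraries with the comparison, and TTX/NMDA against TTX shares its TTX/NMDA libraries, so their values are only set side by side. TTX alone lowered 71 genes (0.457% of 15540) and raised 5 (0.0322%), together 0.489%, and adding NMDA to TTX lowered 1617 genes (10.3% of 15705) and raised 931 (5.93%), together 16.2%. These counts moved with single preparations. Without preparation 1, 3, 6, 7 or 8, TTX lowered 39, 110, 134, 32 or 32 genes, and NMDA on top of TTX raised 283, 367, 1743, 424 or 507. Of the 80 genes induced at 0.5 h, TTX lowered 46 (median −0.44), and NMDA on top of TTX lowered 60 and raised 9 (median −0.65). Ccn1 (−1.52 by TTX, −0.29 by NMDA on top), Klf4 (−1.78 and −0.61), Npas4 (−1.15 and −0.51) and Dusp1 (−1.03 and −0.52) had the larger value in the TTX step, and of these 4 Ccn1 did not pass the test in the NMDA step. Egr2 (−0.17 and −1.97), Egr3 (0.03 and −1.71), Tiparp (−0.21 and −1.95), Fbxo33 (−0.06 and −1.85) and Bdnf (−0.10 and −1.03) had it in the NMDA step, and none of these 5 passed the test with TTX alone. Fosb (−0.59 and −1.38), Arc (−0.78 and −1.10) and Trib1 (−0.83 and −1.06) were lowered in both steps. The collagens Col4a1 and Col11a1 had values of −0.10 and −0.11 in the TTX step that did not pass the test, and rose by 0.57 and 0.62 in the NMDA step.

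Genes of the synapse and of excitability were lowered by smaller amounts. Of 24 postsynaptic scaffold and adhesion genes, 15 were lowered and 1 raised (10 and 1 without the block; median −0.21). Shank3, a core scaffold of excitatory synapses, was at 389, 324, 354, 384 and 345 CPM with 1 h Bic and at 263, 233, 212, 227 and 267 CPM with TTX/NMDA (−0.57, SE 0.06, adjusted p = 2.63e-06). Nlgn3, a neuroligin, went the other way, at 56.9, 61.7, 57.9, 53.6 and 54.7 CPM and at 76.2, 63.6, 69, 71.1 and 73.6 CPM (0.32, SE 0.05, adjusted p = 5.3e-04). The groups overlapped for neither gene. Lrrtm1 (−0.54), Lrrtm2 (−0.50) and Nlgn1 (−0.48), which span the cleft, also fell. Of 24 genes of vesicle release, 11 were lowered and 1 was raised (5 and 0 without the block), with the active zone protein Bsn at −0.57 and the priming factor Unc13a at −0.37. Snap25, Syt1 and Vamp2, which carry out calcium-triggered vesicle fusion, had values between −0.02 and 0.04 that did not pass the test.

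Of 27 voltage-gated potassium channel genes, 16 were lowered and 2 raised (9 and 0 without the block; median −0.17). Kcna1, a Kv1 channel that limits excitability, was at 119, 88.4, 110, 106 and 81.6 CPM with 1 h Bic and at 45.6, 47.5, 54.6, 46.7 and 47.6 CPM with TTX/NMDA (−1.04, SE 0.07, adjusted p = 3.89e-08). Its TTX/NMDA mean of 48.4 CPM was below the control mean of 89.4 CPM, and Kcnf1 (−0.68), Kcnh1 (−0.59) and Kcnq5 (−0.47) came next. Of 23 sodium and calcium channel genes, 16 were lowered and 1 was raised (8 and 0 without the block). Cacna1c, the pore of an L-type calcium channel, was at 166, 139, 145, 141 and 122 CPM and at 98.1, 99.1, 92.9, 87.4 and 96.8 CPM (−0.58, SE 0.06, adjusted p = 2.81e-06). Of 17 ionotropic glutamate receptor subunits, 7 were lowered and 2 raised (3 and 1 without the block). The NMDA receptor subunits Grin1 (−0.30), Grin2b (−0.28) and Grin2a (−0.25) fell, and the AMPA receptor subunit Gria4 rose by 0.24 (adjusted p = 6.31e-04, and 0.021 without the block). The calls of Grin2b and Grin2a were lost without the block (adjusted p = 0.063 and 0.19). Of 13 GABA-A receptor subunits, 5 were lowered and 3 raised (2 and 0 without the block), among them Gabrb1 at −0.46.

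Of 18 genes of cholesterol synthesis, 12 were lowered (4 without the block) and none was raised. Srebf2, the transcription factor that drives the pathway, was at 555, 512, 502, 568 and 499 CPM with 1 h Bic and at 434, 437, 393, 434 and 404 CPM with TTX/NMDA, without overlap (−0.32, SE 0.04, adjusted p = 7.27e-05). Of 16 clock genes, 6 were lowered and 3 raised (2 and 0 without the block), with Per1 (−0.92) and Cry2 (−0.45) called in both fits. The shares were 37.5% lowered and 18.8% raised, against 15.6% and 11.7% over all tested genes. Without the block, 7.53% of all tested genes were lowered.

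**Figure D4:**
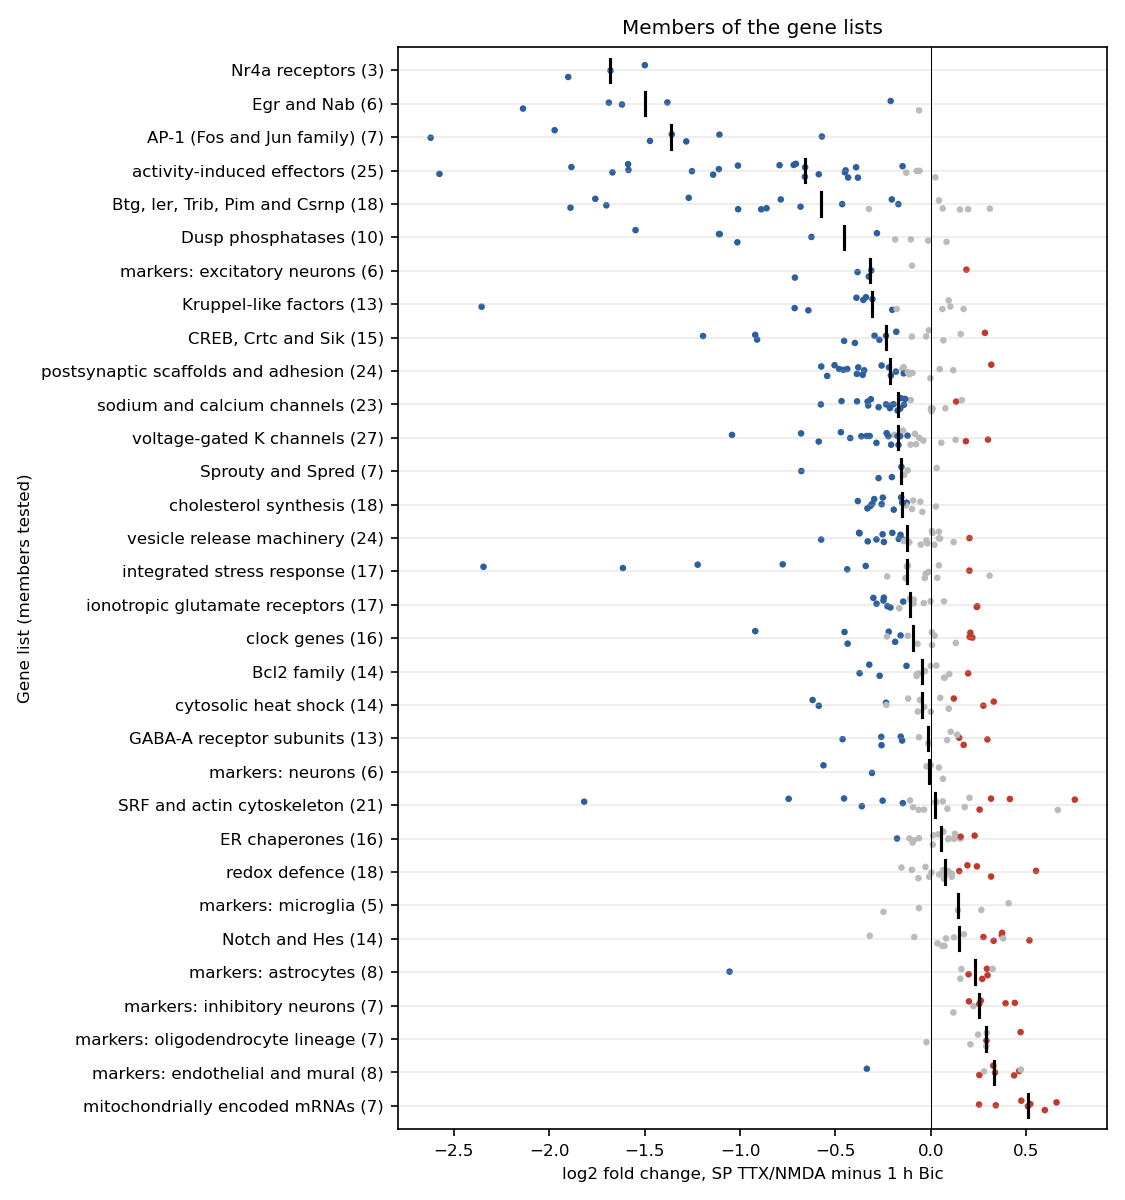
Each point is a tested member of a gene list, placed by its log2 fold change, SP TTX/NMDA minus 1 h Bic, with raised members in red, lowered in blue and members not called in grey. Black bars mark list medians, which run from −1.68 for the Nr4a receptors to 0.51 for the mitochondrially encoded mRNAs, and the count of tested members is given beside each list.

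The largest increases were smaller than the largest decreases and concerned rarer transcripts. The 203 genes raised by more than 0.5 on the log2 scale had a median level of 1.41 CPM, 105 of them were protein coding, and the groups did not overlap for 78. The 15 largest increases were taken at a mean of at least 1 CPM, with 1 direction in 5 of 5 preparations. Some rarer genes had larger values, such as Gm44799 (1.895, at 0.656 CPM with TTX/NMDA and 0.163 CPM with 1 h Bic). Of the 15, 13 belonged to loci that are not annotated as protein coding. Of the 15, 14 were also called without the block. Gm20045, a long intergenic RNA (chr1:171320601-171326177, minus strand), was at 0.715, 0.639, 0.742, 0.88 and 0.535 CPM with 1 h Bic and at 2.16, 2.01, 2.38, 1.85 and 3.06 CPM with TTX/NMDA (1.67, SE 0.18, adjusted p = 8.01e-06). Slc39a2, a zinc importer (chr14:51892889-51896745, plus strand), whose span partly overlaps Mettl17 on the same strand, was at 2.15, 2.46, 1.53, 1.87 and 1.28 CPM and at 3.94, 3.53, 3.82, 2.63 and 3.45 CPM (0.91, SE 0.15, adjusted p = 3.09e-04). The groups overlapped for neither gene. Rn7sk, the RNA that holds the elongation factor P-TEFb inactive, was at 2.09, 2.87, 1.34, 1.22 and 1.66 CPM and at 5.29, 3.23, 2.73, 2.55 and 4.24 CPM (0.94, SE 0.16, adjusted p = 4.2e-04). These groups overlapped, and the transcript has no poly-A tail, so that these libraries measure it poorly.

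Several of the 15 lay inside other genes. Gm19938 (1.46) lay in Xkr4 and A230103L15Rik (1.13) in Snhg14, both on the strand of the host gene, so that their reads cannot be told from unspliced RNA of the host. Gm37206 (0.93) lay in Gm21992 on the same strand, and Gm44562 (1.15) lay in Ube3a on the opposite strand. Of 228 tested loci of the annotation class TEC, which awaits experimental evidence, 48 were raised (21.1%) and 8 lowered (3.51%), with a median of 0.18. Among 13757 protein coding genes, 1633 were raised (11.9%) and 2325 lowered (16.9%). The lowered protein coding genes were longer than the raised ones, with a median span of 58.9 kb against 17.7 kb and 24.4 kb for those not called. They also had higher levels, with medians of 80 against 18 and 19.9 CPM.

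The mRNAs encoded by the mitochondrial genome were raised in 7 of 7 tested cases (5 without the block), with a median of 0.51. The other 6 of the 13 were listed at 0 in all 45 libraries. For complex I, the subunit mt-Nd1 was at 1000, 1180, 1130, 1070 and 912 CPM with 1 h Bic and at 1410, 1340, 1690, 1910 and 1270 CPM with TTX/NMDA (0.52, SE 0.07, adjusted p = 3.17e-05). The largest value was that of mt-Nd4, at 432, 450, 507, 420 and 322 CPM and at 652, 622, 790, 901 and 441 CPM (0.66, SE 0.07, adjusted p = 7.06e-06). The groups did not overlap for mt-Nd1, overlapped through preparation 8 for mt-Nd4 and also overlapped for the other 5. Without the block, mt-Nd1 and mt-Nd4 were still called (adjusted p = 0.0067 and 0.016), and mt-Nd5 and mt-Nd6 were not (0.30 and 0.21). In the TTX step alone, mt-Nd1 and mt-Nd4 had values of 0.14 and 0.04 that did not pass the test. Of 89 nuclear genes of the respiratory chain, 32 were raised and none lowered (median 0.16; 7 without the block), and of 78 cytosolic ribosomal proteins, 23 were raised and none lowered (median 0.13; 1 without the block). Of 349 zinc finger genes named Zfp, 84 were raised and 28 lowered (median 0.10; 24 and 10 without the block). These last 3 lists were added after the data were seen.

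Of 18 redox defence genes, 5 were raised and none lowered, and of 14 Notch pathway genes, 5 were raised and none lowered. None of these 10 was called without the block. Over all tested genes, 11.7% were raised and 15.6% lowered. Txnip, a thioredoxin inhibitor, had a value of 0.55 (adjusted p = 0.009, and 0.13 without the block), Nfe2l2, the master regulator of antioxidant genes, 0.32, and the Notch target Hes1 0.52 (adjusted p = 0.0024, and 0.11 without the block).

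Some markers of cell types moved as well, beside 15.6% lowered and 11.7% raised over all tested genes. In bulk RNA, fewer cells of a type and less RNA per cell cannot be told apart. Of 6 markers of excitatory neurons, 4 were lowered in both fits and 1 was raised in the blocked fit only (median −0.32). Camk2a, a kinase subunit of excitatory neurons, was at 1310, 1080, 1170, 1060 and 1080 CPM with 1 h Bic and at 800, 632, 672, 584 and 788 CPM with TTX/NMDA (−0.71, SE 0.05, adjusted p = 1.53e-07). The summed level of the 6 markers was 2394 to 2869 CPM with 1 h Bic and 1543 to 2038 CPM with TTX/NMDA. Of 7 markers of inhibitory neurons, 5 were raised (median 0.25) and none of the 5 was called without the block. Gad1, which makes GABA, was at 940, 769, 1050, 847 and 727 CPM and at 994, 962, 1180, 1170 and 850 CPM, and the groups overlapped (0.26, SE 0.05, adjusted p = 0.0017, and 0.17 without the block). Their summed level was 1601 to 2174 and 1738 to 2532 CPM. Of 6 general neuron markers, Nefl (−0.56) and Map2 (−0.31) were lowered, and Rbfox3, Tubb3, Snap25 and Syt1 had values between −0.02 and 0.06 that did not pass the test.

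Of 8 astrocyte markers, 4 were raised and 1 was lowered (0 and 1 without the block), with summed levels of 543.9 to 1044 CPM with 1 h Bic and 528.8 to 1097 CPM with TTX/NMDA. The lowered one was Sox9, a transcription factor that was itself induced by 0.5 h Bic, at 65.2, 61.8, 68.8, 75.7 and 35.1 CPM and at 25.6, 35.4, 28.6, 34.7 and 20.8 CPM (−1.06, SE 0.08, adjusted p = 9.12e-08). The astrocyte glutamate transporter Slc1a3 had a value of 0.29, and Gfap a value of 0.16 that did not pass the test. Of 5 tested microglia markers, none was called with or without the block (1 of 5, C1qb, at an unadjusted p under 0.05 in edgeR), with sums of 6.32 to 9.68 and 6.97 to 10.6 CPM, and Cx3cr1, Csf1r, C1qa, Tmem119 and C1qb had values between −0.25 and 0.41. Of 7 tested markers of the oligodendrocyte lineage, 2 were raised, neither of them without the block (sums 120.5 to 194.5 and 117.3 to 230.8 CPM), and of 8 of endothelial and mural cells, 5 were raised and 1 lowered (sums 69.6 to 156 and 83.9 to 190.3 CPM; 1 and 0 without the block). Aif1, P2ry12, Mog, Sox10 and Cldn5 were too rare to be tested. The part of cell type composition in the changes of the other lists was not tested.

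The long protocol (LP), in which 1 h Bic was followed by 1 h of TTX/NMDA and compared with 2 h Bic, is the other total effect of TTX/NMDA after Bic and shares the 5 preparations but no library. LP TTX/NMDA raised 4927 (30.9%) and lowered 4100 (25.7%) of 15947 genes, together 56.6%. The difference of the log2 fold changes, SP minus LP, was tested over the 20 libraries of the 4 groups. It was above 0 for 1788 genes (11.1% of 16152) and below 0 for 1301 (8.05%), together 19.1%. Without the block the counts were 506 and 226, and without preparation 3 or 7 the former was 784 or 939, and without preparation 6 the latter was 843. Most of the 80 genes induced at 0.5 h had a lower value in the SP than in the LP. The difference was called below 0 for 55 of the 80 and above 0 for none, with a median of −0.68. Some of the 80, such as Csrnp1 (0.34) and Mir212 (0.40), had positive differences that did not pass the test. The LP itself lowered 56 and raised 11 of the 80.

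Part of the immediate early genes were on this side. The difference was called below 0 for 4 of 7 AP-1, 3 of 6 Egr and Nab and 2 of 3 Nr4a genes. Npas4 (−0.42, adjusted p = 0.056), Egr3 (−0.46, adjusted p = 0.073) and Jun (−0.39, adjusted p = 0.064) did not pass the interaction test. Egr2 changed by −2.14 (SP) and −0.35 (LP), on the log2 scale (difference −1.73, SE 0.21, adjusted p = 1.33e-05). For Dusp1 (−1.55 and 0.02), Btg2 (−1.70 and 0.08), Ccn1 (−1.82 and 0.16) and Klf4 (−2.36 and −0.06), the LP value did not pass the test, and the differences of −1.54, −1.75, −1.92 and −2.29 did. For Fos the values were −1.47 and −0.51 and for Arc −1.88 and −0.57. Bdnf (−1.14 and −1.23, difference 0.10, SE 0.11, adjusted p = 0.58), Rgs4 (−1.01 and −0.96, difference −0.04, SE 0.07, adjusted p = 0.74) and Nr4a3 (−1.50 and −1.26, difference −0.23, SE 0.15, adjusted p = 0.29) had differences that did not pass the test. The 5 most negative differences were those of Klf4 and of Gm43359 (−2.61), Gm44677 (−2.41), Gm42970 (−2.34) and Gm44799 (−2.32), TEC loci that lie inside Atp2a2, Dlg2, Ank2 and Fam155a on the strand of these genes. Gm44677 was at 0.852 CPM with SP TTX/NMDA and 0.312 CPM with 1 h Bic, and at 3.36 CPM with LP TTX/NMDA and 0.224 CPM with 2 h Bic.

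The 5 most positive differences were those of Pim1 (1.78, SE 0.27), Insm1 (1.76, SE 0.22), Inhba (1.56, SE 0.15), Rnf217 (1.55, SE 0.12) and Zfp516 (1.31, SE 0.12). Inhba fell from 10.4 to 6.38 CPM in the SP (−0.72) and from 47.2 to 9.84 CPM in the LP (−2.27). Pim1, a survival kinase, fell from 4.02 to 2.86 CPM in the SP (−0.46; adjusted p = 0.19 without the block) and from 29.1 to 6.38 CPM in the LP (−2.19). Insm1, a zinc finger factor of neuroendocrine cells, had a value of 0.45 in the SP (adjusted p = 0.051 without the block) and fell in the LP (−1.21). Homer1 (0.86, SE 0.17) and Kcna1 (0.91, SE 0.13) also had positive differences. Of the activity-induced effectors, 9 of 25 had a difference above 0 and 4 below. A difference above 0 was also called for 15 of 24 vesicle release genes and 9 of 24 scaffold genes. It was called for 13 of 27 potassium channel genes and 13 of 23 sodium and calcium channel genes as well. In each of these lists none or 1 was below 0. Over all genes tested for this difference, 11.1% were above 0 and 8.05% below. All 7 mitochondrially encoded mRNAs and all 8 astrocyte markers had differences below 0, with medians of −0.54 and −0.58.

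**Figure D5:**
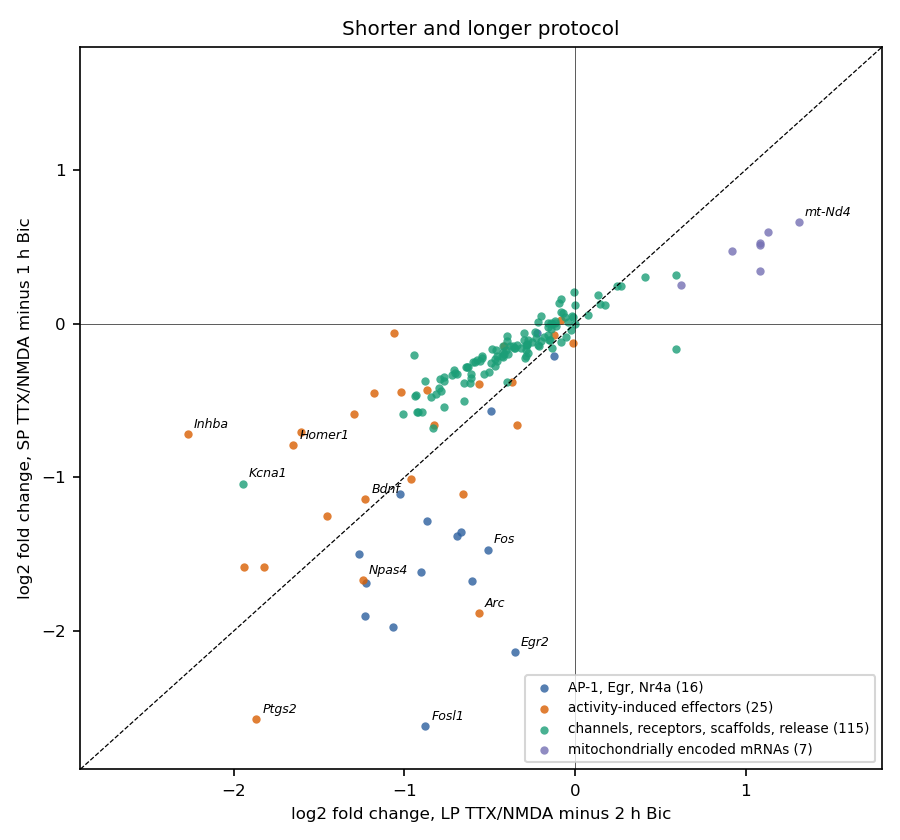
Log2 fold changes of list members in the LP (TTX/NMDA minus 2 h Bic, horizontal axis) and in the SP (TTX/NMDA minus 1 h Bic, vertical axis), coloured by list as in the legend, with the line of equal change dashed. Of 16 AP-1, Egr and Nr4a genes 15 lie below the line, and of 115 channel, receptor, scaffold and release genes 102 lie above it. The mitochondrially encoded mRNAs lie below it with positive values in both. The share of all tested genes on each side of the line was not counted.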

How the data were processed

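RNA was poly-A selected from mouse hippocampal cultures, made into directional libraries and sequenced on a NextSeq 500 (single-end, 75 cycles). The authors deposited raw read counts per gene for 45 libraries (9 groups of 5). Per the labels' processing notes and the methods, reads were demultiplexed with bcl2fastq 2.20.0.422, aligned to GRCm38 with STAR 2.5.4b and counted on the sense strand with featureCounts 1.6.5. Reads that fit several genes or places were not counted, so that members of near-identical families and genes that overlap on 1 strand are undercounted. Of 54532 gene IDs, 37 had no symbol. GENCODE release 21 gave biotypes, coordinates and overlaps.

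Groups came from the sample labels. Counts were tested with edgeR 4.0.16 (R 4.3.3): filterByExpr, TMM factors, quasi-likelihood test, preparation as a block, Benjamini-Hochberg adjustment over all tested genes, threshold 0.05. The SE is the fold change divided by the root of F. The block was used because the libraries are compared within preparations. Deviations from the group means correlated at 0.37, 0.44, 0.68, 0.67 and 0.55 between libraries of the same number (mean 0.54, against −0.13 for other pairs, over 13590 genes). Whether preparations also differ in date or animals is not given in the sources used here. SP and LP were compared by an interaction term over 20 libraries.

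CPM used TMM factors over all libraries, with 0.5 CPM added only for ratios within a preparation. Named were the 15 largest called changes in each direction and the 5 largest SP minus LP differences in each direction, at a mean of at least 1 CPM and, for the former, with 1 direction in 5 of 5 preparations, along with members of gene lists. The members and lists were chosen with earlier results of these data known. Alternatives were no block, no filter on low counts, DESeq2 1.42.0 and its size factors, and leaving out each preparation. On simulated data for 15325 genes the blocked fit called 208 genes with 8 false (3.85%) and recovered 100% of genes changed 1.5-fold or more, and the fit without the block called 186 with 0 false and recovered 86.6% of genes changed 1.5-fold. Values of a few list members are not reported here.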

Additional observations from a re-analysis of the deposited data

Results flagged for a closer look

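The following changes differed between the SP and the LP by the interaction test of edgeR (adjusted p under 0.05). They are given as SP minus LP on the log2 scale, from 29 of the named genes. Among the 15 genes lowered most in the SP, the differences were −1.636 for Fosl1, −0.6721 for Ptgs2, −2.292 for Klf4, −1.013 for Atf3, −1.248 for Tiparp, −1.731 for Egr2, −1.133 for Spty2d1, −1.254 for C2cd4b, −1.151 for Esm1, −0.8967 for Fosb, −1.35 for Fbxo33, −0.6661 for Nr4a2, −0.5848 for Trib1 and −1.277 for Arc. Each of these genes fell further in the SP. They were picked for large decreases in the SP, which enter the difference, so these values are a description.

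Among the genes raised most in the SP, Gm19938 (−1.965), Gm44562 (−1.748) and A230103L15Rik (−1.947) rose further in the LP. Gm4673 (1.041), Tomm6os (0.7443) and BC030343 (0.7668) had the larger value in the SP. These genes, too, were picked for their SP values. The genes named for the size of the difference itself were Gm43359 (−2.612), Gm44677 (−2.411), Gm42970 (−2.34) and Gm44799 (−2.321) on the negative side, and Zfp516 (1.315), Rnf217 (1.549), Inhba (1.561), Insm1 (1.761) and Pim1 (1.777) on the positive side. Since the last 9 genes and Klf4 were picked for this difference, their size is a description.

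In 60 groups of 5 libraries, the levels of the 30 genes with the largest changes held no library that stood apart by Dixon's criterion.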

How the results depend on the processing

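No result reversed. The preparation block shifted several counts. Without it, 320 genes were raised and 1162 lowered (21.6% of the calls raised), and 490 of the genes induced by 2 h Bic were lowered. Without it, 506 and 226 genes had a higher or lower SP minus LP difference. Without the block and with every gene of at least 1 read, the values were 280 raised, 1071 lowered (20.7% raised), and 371 and 144 for SP minus LP. DESeq2 with the block raised 1062 genes, and DESeq2 without the block and with every gene of at least 1 read raised 438 and lowered 1462 (23.1% raised). Leaving out 1 preparation gave 853 to 2503 raised, 1621 to 2910 lowered, 784 to 1717 and 843 to 1116 genes for a higher and a lower SP minus LP difference, and 657 to 904 lowered genes among those induced by 2 h Bic. The raised count fell by over 1.5 times without preparation 1 (1095), 6 (874) or 7 (853). The cause of these shifts was not tested. For TTX against 1 h Bic, the fit without the block raised 1 and lowered 34 genes, and leaving out 1 preparation gave 0 to 53 and 32 to 134 (2 raised without preparation 1 and 53 without preparation 6). For TTX/NMDA against TTX, the fit without the block raised 345 and lowered 1063 genes, and leaving out 1 preparation gave 283 to 1743 and 827 to 2136 (827 without preparation 1). Lowered genes among the 80 induced at 0.5 h numbered 69 without the block. Of 270 named genes, 121 lost their call without the block, 1 with DESeq2's size factors and 6 to 60 when a preparation was left out. DESeq2 with the block gave an adjusted p for 266 of the 270, and 21 lost their call. In DESeq2 without the block and with every gene of at least 1 read, 99 lost it. Of the 30 largest changes, 1 lost its call without the block, and none of the 30 did when a preparation was left out. DESeq2 with the block gave an adjusted p for 26 of the 30.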
